A study of Mus musculus with 10 samples.

Results

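The genes described here are enzymes of ornithine, proline, glutamate, glutamine and histidine metabolism in the liver of lactating mice. Most act in breakdown, while Glul and Aldh18a1 act in synthesis from glutamate. The genes were given as a list of 10 symbols, Oat, Prodh, Aldh4a1, Aldh18a1, Glul, Gls2, Glud1, Hal, Uroc1 and Ftcd. Every probe set annotated to exactly 1 of these symbols was taken. A probe set is a group of short probes whose signals are combined into 1 value, and it may match more than 1 transcript. Of the 10 genes 9 had a probe set, 16 probe sets in all, out of 18193 named genes and 45037 probe sets. No probe set in the annotation used here carried Gls2, the liver-type glutaminase, as its symbol. The list was chosen by pathway with earlier results of the same diet comparison known, so the HGI minus LGI values helped to choose the genes, and the diet differences of these 9 genes are given as a description.

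Liver RNA of 10 mice was measured on Affymetrix arrays, 1 array per mouse, as whole-liver RNA. All mice were lactating females of the QSi5 strain, killed at peak lactation, and no source used here gives their age. The 5 HGI mice had eaten a diet of high glycaemic index since pregnancy, in which glucose made up 51.4% of the weight and the gross energy was 15.6 MJ per kg, and the labels give them a positive energy balance. The 5 LGI mice had eaten a diet of low glycaemic index over the same time, in which an amylose-rich starch made up 51.4% and the gross energy was 16.3 MJ per kg, and the labels give them a negative energy balance. The kind of carbohydrate and the energy balance therefore cannot be told apart. Values are log2 expression, and every difference is HGI minus LGI on that scale.

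Ornithine and proline enter a shared mitochondrial intermediate, pyrroline-5-carboxylate, which is oxidised to glutamate, and glutamate is either deaminated for energy or joined with ammonia to form glutamine. Histidine is broken down by a chain of its own that also ends in glutamate and hands a formimino group to folate. These steps are divided over the liver lobule: Glul, glutamine synthetase, and Oat, ornithine aminotransferase, are pericentral genes, while Hal, histidine ammonia-lyase, and Uroc1, urocanate hydratase, are periportal.

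Oat showed the widest separation, with every HGI mouse below every LGI mouse. Prodh, Aldh4a1, Hal, Uroc1 and Ftcd also averaged lower in HGI, with some overlap between the diets. Glul averaged higher in HGI at both of its probe sets, and Glud1, glutamate dehydrogenase, averaged close to level. Aldh18a1 lay under a mean log2 of 6 at all of its probe sets. Of the 8 genes whose mean log2 was 6 or more, here called measurable signal, 6 lay below 0 and 2 above, with a median difference of -0.32. Over all 11472 probe sets at that signal 60.02% lay below 0, and their median difference was -0.04. In the fit across all probe sets (limma, Benjamini-Hochberg adjusted p under 0.05) 0 of the 16 probe sets were called, where 0.0644% of all probe sets were. At an unadjusted p under 0.05, 5 of the 16 lay lower in HGI and 2 higher, where 4.78% of all probe sets lay lower and 2.76% higher. An unmoderated two-sample test with the same adjustment called 0. Since the comparison itself guided the choice of genes, nothing is read from these counts.

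**Figure D1:**
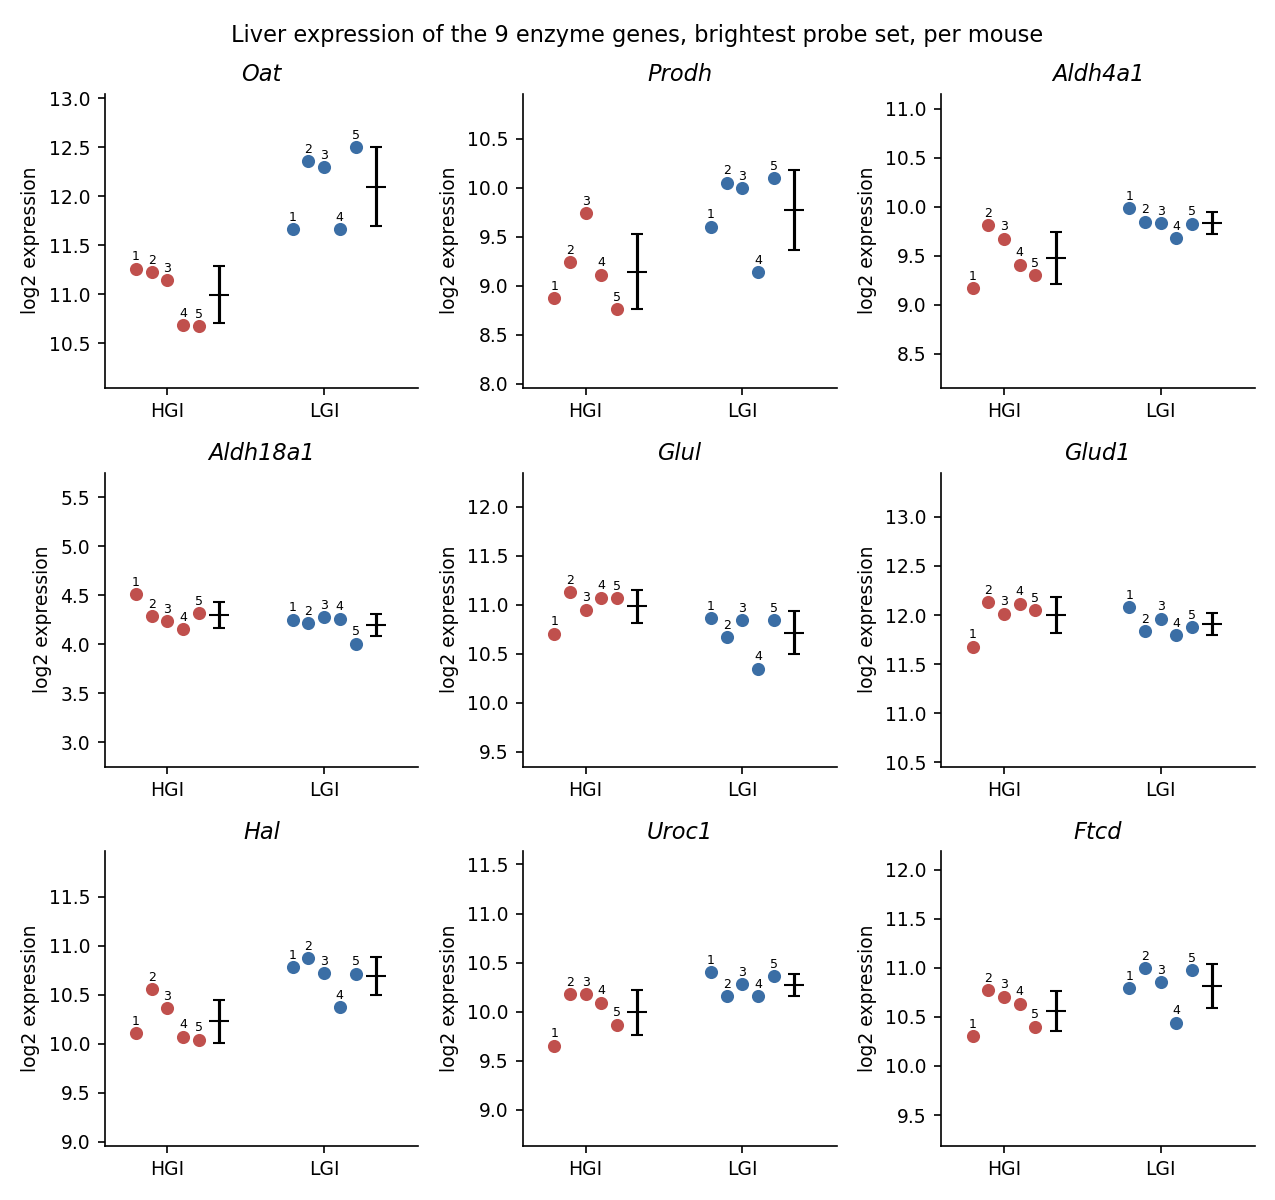
Log2 expression (vertical axis, each panel spanning 3 log2 units) of the 9 genes at their brightest probe set in HGI mice (red, left) and LGI mice (blue, right); numbers are replicate numbers, and bars are the mean and SD of 5 mice. The diets do not overlap for Oat, whose HGI mice lie between 10.68 and 11.26 and whose LGI mice lie between 11.67 and 12.50.

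The sequence upstream of the start is shown for Oat and Glul, pericentral genes whose differences ran opposite ways, and for Hal, the first histidine enzyme. Each line gives the 250 bases before the annotated start, 5′ to 3′ on the strand of the gene, from RefSeq on GRCm38.p6. Oat lies on the minus strand of chromosome 7 (chr7:132576399-132576648), and Glul and Hal lie on the plus strand (chr1:153899679-153899928 and chr10:93488518-93488767). Capitals mark matches, on either strand, to TATAAA (a core promoter box), CCAAT (the box named after its letters), CTTTGA (the core bound by TCF and LEF factors), TGACG (part of a cAMP response element), TGTTTAC (the forkhead motif), TTGCNNAA (the motif of C/EBP factors) or TGTTCT (part of a glucocorticoid receptor motif).
Oat: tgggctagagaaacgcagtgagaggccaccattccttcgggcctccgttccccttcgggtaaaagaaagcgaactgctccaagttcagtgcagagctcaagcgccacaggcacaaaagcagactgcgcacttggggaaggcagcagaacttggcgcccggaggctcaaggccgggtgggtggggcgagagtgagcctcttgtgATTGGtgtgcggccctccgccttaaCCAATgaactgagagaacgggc
Glul: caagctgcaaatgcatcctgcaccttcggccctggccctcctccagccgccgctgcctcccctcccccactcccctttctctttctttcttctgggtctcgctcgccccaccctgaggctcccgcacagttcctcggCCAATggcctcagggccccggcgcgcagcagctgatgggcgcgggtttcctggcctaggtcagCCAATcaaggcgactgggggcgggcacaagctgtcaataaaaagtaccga
Hal: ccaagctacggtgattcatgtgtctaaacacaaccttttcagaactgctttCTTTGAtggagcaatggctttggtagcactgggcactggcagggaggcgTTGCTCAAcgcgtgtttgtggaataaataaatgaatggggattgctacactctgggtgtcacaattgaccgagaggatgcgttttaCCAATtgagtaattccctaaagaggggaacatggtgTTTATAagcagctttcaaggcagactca
Oat and Glul each hold 2 CCAAT matches, of which 1 in Oat is on the opposite strand, and neither holds TATAAA. Hal holds TATAAA on the opposite strand at positions -28 to -23, counted back from the start, and 1 match each to the CCAAT box, the TCF and LEF core and the C/EBP motif, none overlapping another. Of the 9 genes 5 hold CCAAT, against 33.8% of 32851 promoters of the same length. For CTTTGA it is 2 of 9, Hal and Uroc1, against 13.8%, and for TATAAA 2 of 9, Hal and Ftcd, against 12.4%. TGACG was found in Ftcd alone (17.8% of promoters) and TTGCNNAA in Hal alone (9.56%). The letters TGTTTAC (3.17% of promoters) and TGTTCT (16.1%) were in 0 of the 9 windows. In the Prodh, Glud1 and Aldh18a1 windows none of these letters was found. These matches describe the windows and were not tested against expression.

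Oat, which turns ornithine into the shared intermediate, read 11.26, 11.23, 11.14, 10.69 and 10.68 in HGI mice 1 to 5, against 11.67, 12.36, 12.30, 11.67 and 12.50 in LGI mice 1 to 5. The highest HGI mouse lay below the lowest LGI mouse, and both diets held a higher and a lower cluster of mice. Such a separation with HGI lower was found at 1.2% of all probe sets. The means were 11.00 ± 0.29 in HGI and 12.10 ± 0.40 in LGI (SD, n = 5 each), a difference of -1.10 ± 0.18 (SE), which put the HGI level at 46.7% of the LGI level. Divided by the SD within diets, it was -3.14. Of all probe sets 0.069% had a difference as low or lower. Since the diet differences helped to choose the genes, neither this share nor the 1.2% above is a test of Oat. In whole-liver RNA, fewer cells that express a gene and less RNA per cell cannot be told apart.

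Oat was read by a single probe set, so no second probe set checks it. The difference lay between -1.21 and -0.9998 whichever array was left out. The probe set was not called in the fit named above, but it was called when dim probe sets were left out beforehand and under several other settings given at the end.

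Prodh, proline dehydrogenase, makes the same intermediate from proline. It read 8.87, 9.24, 9.74, 9.11 and 8.76 in HGI mice 1 to 5, against 9.60, 10.05, 9.996, 9.14 and 10.10 in LGI mice 1 to 5. HGI 3 and LGI 4 cross: HGI 3 lay above 2 LGI mice, and LGI 4 lay within the HGI range. The means were 9.15 ± 0.38 in HGI and 9.78 ± 0.41 in LGI (SD, n = 5 each), a difference of -0.63 ± 0.20 (SE), with the HGI level at 64.5% of the LGI level. Without LGI 4 the difference was -0.79, and without HGI 5 it was -0.54.

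Aldh4a1, the dehydrogenase that oxidises the intermediate to glutamate, read 9.17, 9.82, 9.67, 9.41 and 9.31 in HGI mice 1 to 5, against 9.99, 9.85, 9.83, 9.68 and 9.83 in LGI mice 1 to 5. In this gene 4 of 5 HGI mice lay below the lowest LGI mouse, and HGI 2 lay among the LGI mice. The difference was -0.36 ± 0.12 (SE), and the SD was 0.27 in HGI and 0.11 in LGI (n = 5 each). Along the route to glutamate the differences were -1.10 at Oat, -0.63 at Prodh and -0.36 at Aldh4a1, each relative to its own probe set. Divided by the SD within diets they were -3.14, -1.60 and -1.78, so the order of the last 2 changed. Whether the differences of the 3 genes are unlike was not tested.

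Aldh18a1, the synthase that makes the intermediate from glutamate, runs the pathway in reverse. Its brightest probe set averaged 4.30 ± 0.13 in HGI and 4.20 ± 0.11 in LGI (SD, n = 5 each), where the medians of the arrays lay between 3.91 and 3.97. Its other 4 probe sets lay, on average, under every array's median. The 5 differences lay between 0.01 and 0.23. With signal only a little above the medians of the arrays or below them the sizes are uncertain, and no direction is drawn from them.

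**Figure D2:**
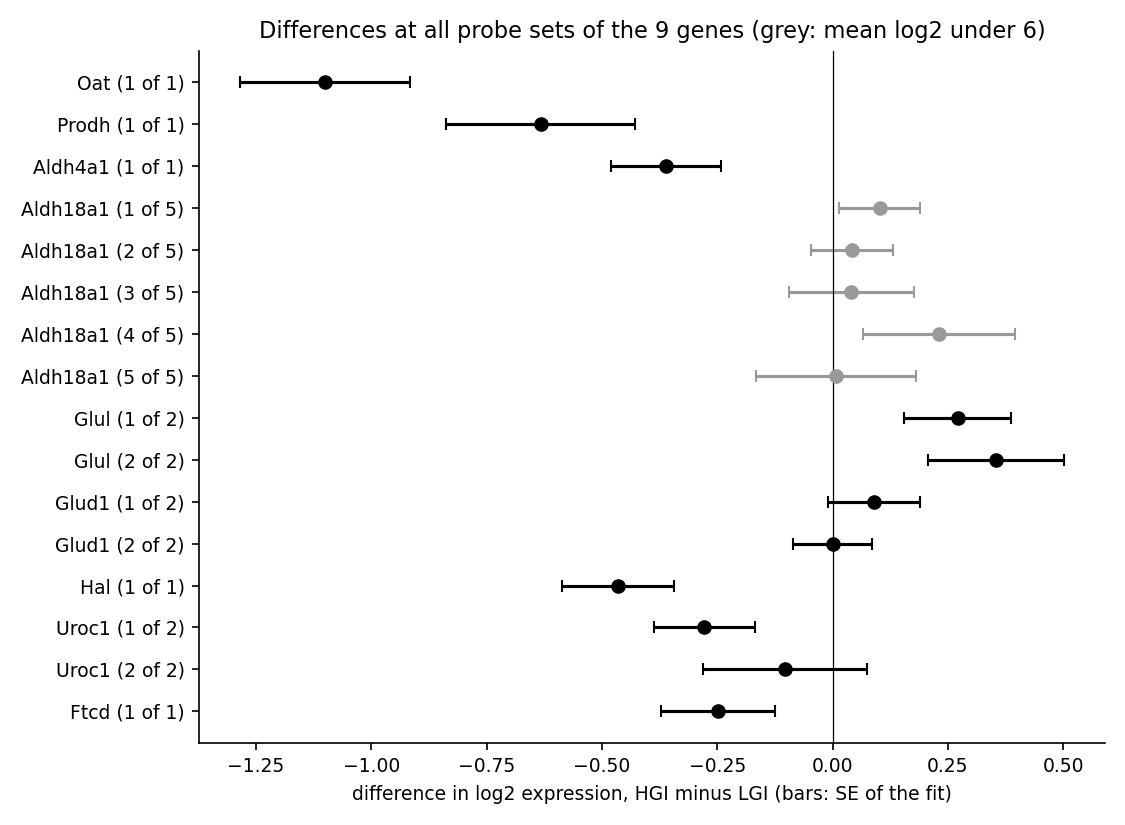
Difference in log2 expression (horizontal axis, HGI minus LGI) at each of the 16 probe sets of the 9 genes, with the SE of the fit as bars and probe sets numbered from the brightest; grey marks a mean log2 under 6. Oat stands at -1.10, Glul at 0.27 and 0.35, and the 5 Aldh18a1 probe sets, all grey, lie between 0.01 and 0.23.

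Glul, which joins glutamate with ammonia, read 10.70, 11.13, 10.95, 11.07 and 11.07 in HGI mice 1 to 5, against 10.86, 10.67, 10.85, 10.35 and 10.84 in LGI mice 1 to 5. Of the HGI mice 4 of 5 lay above every LGI mouse, and HGI 1 lay inside the LGI range. The difference was 0.27 ± 0.12 (SE) at this probe set, from means of 10.98 ± 0.17 in HGI and 10.71 ± 0.22 in LGI (SD, n = 5 each). At the dimmer probe set it was 0.35 ± 0.15 (SE), and within diets the 2 probe sets followed each other over the 10 mice (Pearson r = 0.91, a description of 2 readings of 1 gene). LGI 4 was the lowest mouse at both, and without it the difference at the brighter probe set was 0.18, so the size rests in part on 1 mouse.

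Glud1, which releases ammonia from glutamate, read 11.68, 12.13, 12.01, 12.12 and 12.05 in HGI mice 1 to 5, against 12.08, 11.83, 11.96, 11.79 and 11.87 in LGI mice 1 to 5. HGI 1 stood below all other mice, and the remaining HGI mice lay at or above most LGI mice. The difference was 0.09 ± 0.10 (SE), within the SD of 0.15 between mice of a diet, and it was 0.17 without HGI 1. At the second probe set it was 0.00 ± 0.09 (SE).

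Hal, which removes ammonia from histidine to give urocanate, read 10.11, 10.56, 10.36, 10.07 and 10.04 in HGI mice 1 to 5, against 10.78, 10.87, 10.72, 10.37 and 10.71 in LGI mice 1 to 5. Only HGI 2 and LGI 4 crossed. The means were 10.23 ± 0.22 in HGI and 10.69 ± 0.19 in LGI (SD, n = 5 each), a difference of -0.47 ± 0.12 (SE), with the HGI level at 72.4% of the LGI level. Left-out arrays moved the difference between -0.55 and -0.42.

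Uroc1, which hydrates urocanate, read 9.65, 10.18, 10.18, 10.09 and 9.87 in HGI mice 1 to 5, against 10.40, 10.16, 10.28, 10.16 and 10.36 in LGI mice 1 to 5. The diets overlapped, with HGI 2 and HGI 3 above LGI 2 and LGI 4. The difference was -0.28 ± 0.11 (SE) here, -0.10 ± 0.18 (SE) at the dimmer probe set, and -0.19 at the brighter one without HGI 1. The pair of probe sets followed each other less closely than those of Glul over the 10 mice (r = 0.54 within diets).

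Ftcd carries the formimino group of the histidine chain to folate and frees ammonia from it. It read 10.30, 10.77, 10.71, 10.64 and 10.40 in HGI mice 1 to 5, against 10.79, 10.99, 10.85, 10.44 and 10.98 in LGI mice 1 to 5. All LGI mice other than LGI 4 lay above the HGI mice. The difference was -0.25 ± 0.12 (SE), -0.34 without LGI 4 and -0.18 without HGI 1. All 3 measured histidine enzymes thus averaged lower in HGI, with differences of -0.25 to -0.47 at their brightest probe sets.

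Single mice moved many of these genes together. LGI 4 was the lowest LGI mouse in 8 of 8 genes with measurable signal, with a mean deviation from the LGI means of -0.315. To 2 decimals, however, LGI 4 was level with LGI 1 in Oat and with LGI 2 in Uroc1. HGI 1 was the lowest HGI mouse in 5 of 8 genes, and HGI 2 the highest in 5 of 8. In Oat alone of these genes HGI 1 was the highest HGI mouse (0.26 above the diet mean). How often each mouse is the lowest or highest of its diet over all probe sets was not counted, so nothing is read from these counts. The array of HGI 1 also had the narrowest spread of values (SD 2.16, against 2.26 to 2.32 for the other arrays). Its probe sets of measurable signal deviated from the HGI means by -0.24 at the median. For LGI 4 the same median, taken from the LGI means, was -0.01. The Gapdh control probes at the 3′ end minus those at the 5′ end, a sign of RNA quality, lay between 0.29 and 0.99 in HGI. In LGI they lay between 0.33 and 0.87, and LGI 4 had the highest value of the LGI mice. For the Actb control probes the values lay between 1.25 and 2.00 in HGI and between 1.30 and 2.27 in LGI. There LGI 4 had the highest value of all arrays. The part of spread and RNA quality in these deviations was not tested. When HGI 1 and LGI 4 were left out together, Oat stood at -1.27, Prodh at -0.72, Aldh4a1 at -0.32, Hal at -0.52, Uroc1 at -0.22, Ftcd at -0.28, Glul at 0.25 and Glud1 at 0.14.

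**Figure D3:**
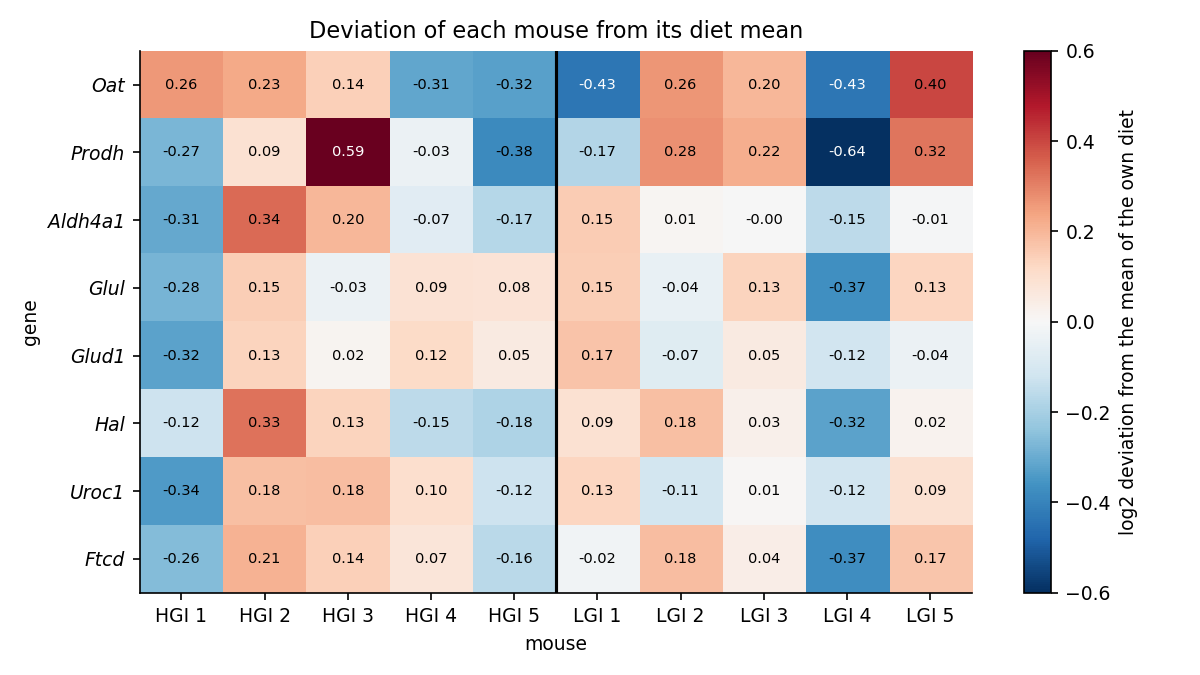
Deviation of each mouse (columns, HGI left of the line and LGI right of it) from the mean of its own diet, in log2 units, for the 8 genes of measurable signal (rows). LGI 4 is below its diet mean in all 8 genes, and HGI 1 is below its own in 7 of 8, the exception being Oat at 0.26.

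Whether enzymes of consecutive steps or of the same lobule zone varied together from mouse to mouse was tested on deviations from the diet means, which leave the diet difference out. Of 7 planned pairs 5 could be computed, since 2 needed Gls2. Uroc1 and Ftcd had Pearson r = 0.70 and Spearman rho = 0.62 over the 10 mice (two-sided exact permutation within diets, p = 0.0274 and 0.0767, adjusted p = 0.112 and 0.117 over the 5 pairs). Oat and Prodh, both sources of the shared intermediate, had r = 0.69 and rho = 0.64 (exact permutation p = 0.0449 and 0.0730, adjusted p = 0.112 and 0.117). Prodh and Aldh4a1, consecutive enzymes, had r = 0.58 and rho = 0.64 (exact permutation p = 0.0799 and 0.0539, adjusted p = 0.133 and 0.117).

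None of these 3 pairs passed the adjustment, and neither did the other two. Hal and Uroc1, the first steps of the histidine chain, had r = 0.55 and rho = 0.62 (exact permutation p = 0.153 and 0.0939, adjusted p = 0.191 and 0.117). Oat and Glul, both pericentral, had r = 0.11 and rho = 0.02 (exact permutation p = 0.809 and 0.975, adjusted p = 0.809 and 0.975). Without the 2 mice farthest from the median of the first gene, r was 0.38 for Uroc1 and Ftcd, 0.39 for Oat and Prodh, 0.38 for Prodh and Aldh4a1, 0.34 for Hal and Uroc1, and -0.42 for Oat and Glul. Leaving out the mice farthest out in the first gene narrows its range, which by itself lowers r. The lower values therefore do not show how far the first 4 relations rest on those mice. The relation of Oat and Glul has no settled sign. Without HGI 1 and LGI 4, Oat and Prodh stood at r = 0.78 (exact permutation p = 0.0226, not adjusted). Within HGI and within LGI alone, r was 0.98 and 0.35 for Uroc1 and Ftcd, and 0.38 and 0.91 for Oat and Prodh. In the same order it was 0.74 and 0.42 for Prodh and Aldh4a1, and 0.66 and 0.36 for Hal and Uroc1. For Oat and Glul it was -0.49 and 0.46, of opposite sign. These values within single diets were not tested.

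**Figure D4:**
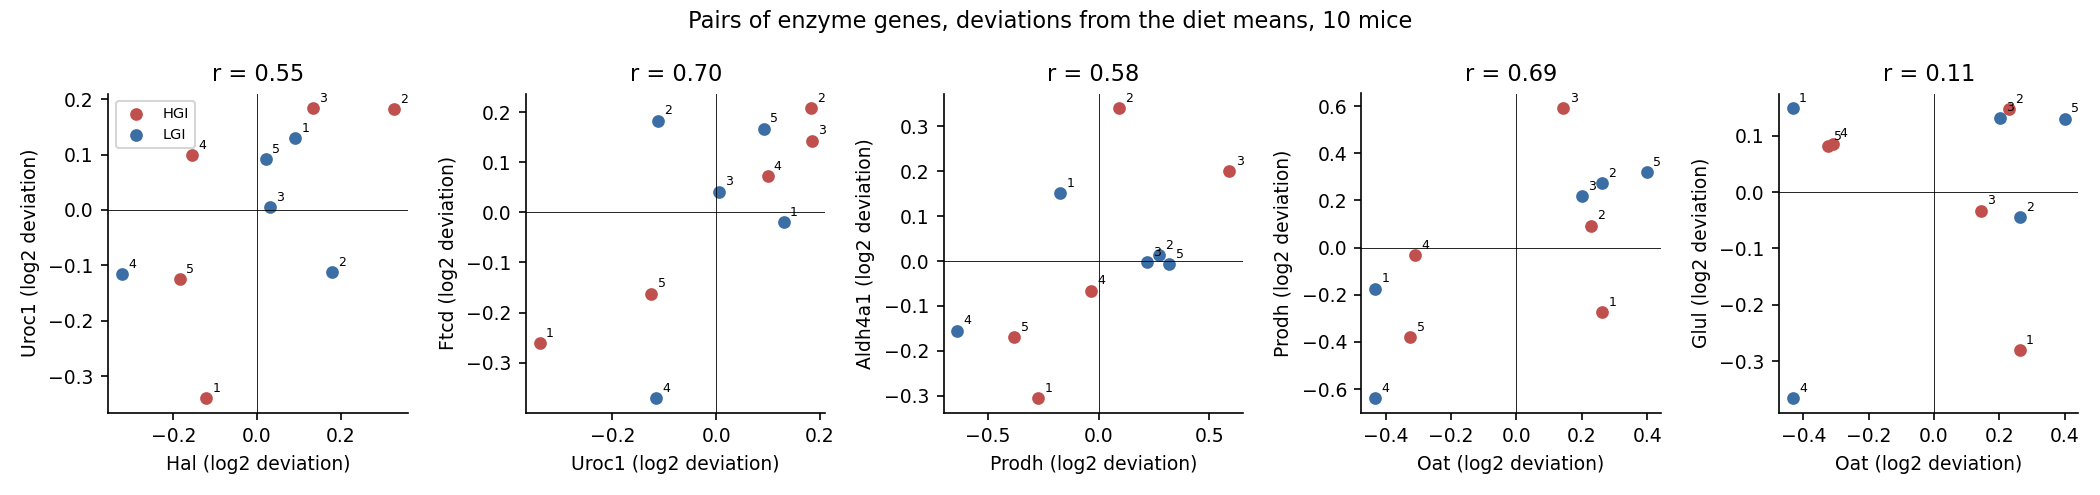
Deviation from the diet mean in log2 units of one gene (horizontal axis) against another (vertical axis) for the 5 pairs tested, with HGI mice in red, LGI mice in blue, replicate numbers beside the points and Pearson r above each panel. Oat and Prodh (r = 0.69) rise together in both diets except for HGI 1, while Oat and Glul (r = 0.11) form no line.

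Among 7028 other named genes of measurable signal, those most like Oat within diets were Tmem116 (r = 0.86), Slc38a3, a transporter of glutamine and histidine (0.86), Hgd, a tyrosine breakdown enzyme (0.84), Grip2 (0.83) and Eci3, an enoyl-CoA isomerase (0.82). These r values were the highest of many and carry no test. Prodh ranked number 30 among the genes like Oat, Hal 113, Ftcd 149, Aldh4a1 1329, Glul 1713, Uroc1 2502 and Glud1 4969. The genes most like Prodh were Inmt, a methyltransferase (0.96), Cps1, the entry enzyme of the urea cycle (0.96), Gypc (0.95), Gpt, alanine aminotransferase (0.95), and Nqo2, a quinone reductase (0.94). Ftcd ranked number 51 for Prodh, Hal 398, Oat 537, Aldh4a1, the next enzyme, 1044, Uroc1 1208, Glul 1542 and Glud1 3092.

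Those most like Hal were Ahctf1 (0.94), Pdzk1ip1 (0.92), Aldh1l1, which oxidises formyl-folate (0.91), Thrap3 (0.91) and Mycl (0.91). Aldh4a1 ranked number 50 and Ftcd number 55 for Hal, while Uroc1, the next enzyme of its own chain, ranked 934. Those most like Glul were Cyp2c37, a cytochrome P450 (0.97), Mocs2 (0.97), Usp46 (0.97), Kat2b (0.97) and Txndc15 (0.96). Without HGI 1 and LGI 4 the r values of these 5 genes with Glul lay between 0.69 and 0.89, and those of the 5 genes with Oat between 0.78 and 0.87.

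The neighbouring steps of each pathway were taken from lists. Of 11 measured genes around proline and ornithine 0 rose and 0 fell (limma adjusted p, as above), with 2 lower and 0 higher at an unadjusted p under 0.05. Of the 9 with measurable signal 8 lay below 0 with a median of -0.18. Over all probe sets at that signal 60.02% lay below 0, with a median of -0.04. At an unadjusted p under 0.05, 4.78% of all probe sets were lower and 2.76% higher. Here and for the lists below, these shares at that p include dim probe sets, while each list gene stands at its brightest probe set. The list counts and the shares are therefore not like for like. Otc, which spends ornithine in the urea cycle, averaged 11.75 ± 0.20 in HGI and 12.11 ± 0.09 in LGI (SD, n = 5 each), a difference of -0.36 ± 0.10 (SE, limma adjusted p = 0.328). Hoga1, which splits the product of hydroxyproline breakdown, stood at -0.32 (adjusted p = 0.578, limma) and Azin1, a regulator of ornithine decarboxylase, at -0.19 (adjusted p = 0.811, limma). Arg1, the arginase that supplies ornithine, stood at -0.01.

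Around glutamate and glutamine 0 of 23 measured genes rose and 0 fell, with 7 lower and 1 higher at an unadjusted p under 0.05. Of the 20 with measurable signal 16 lay below 0, with a median of -0.19. The shares over all probe sets were 4.78% lower and 2.76% higher at that p, and 60.02% below 0 at measurable signal. Gpt, which passes amino groups between alanine and glutamate, averaged 10.37 ± 0.29 in HGI and 10.89 ± 0.24 in LGI (SD, n = 5 each), a difference of -0.52 ± 0.15 (SE, limma adjusted p = 0.348). Abat, which breaks down gamma-aminobutyrate, stood at -0.40 (adjusted p = 0.235, limma), and Slc1a2, a pericentral glutamate transporter, at -0.46 (adjusted p = 0.624, limma).

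Around histidine and the formyl group 0 of 10 measured genes rose and 0 fell. At an unadjusted p under 0.05, 1 was lower and 1 higher, where 4.78% of all probe sets were lower and 2.76% higher. Of the 7 with measurable signal 4 lay below 0 and 3 above, with a median of -0.05. Over all probe sets at that signal 60.02% lay below 0. Aldh1l1 averaged 12.15 ± 0.22 in HGI and 12.57 ± 0.16 in LGI (SD, n = 5 each), a difference of -0.42 ± 0.12 (SE, limma adjusted p = 0.328). Amdhd1, the enzyme between Uroc1 and Ftcd, stood at -0.24 (adjusted p = 0.824, limma) and Mthfd1, a folate enzyme, at -0.21 (adjusted p = 0.770, limma). With Amdhd1, all 4 enzymes of the histidine chain averaged lower in HGI at their brightest probe sets, none of them called. The genes were chosen with the diet differences known, so nothing is read from this shared direction.

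The 2 zones of the lobule were compared as lists. Apart from Oat and Glul, the 10 pericentral genes with measurable signal had a median difference of -0.03. Slc1a2 stood at -0.46 and Gulo, the last enzyme of vitamin C synthesis, at 0.47 (adjusted p = 0.533, limma). Apart from Hal and Uroc1, the 14 periportal genes with measurable signal had a median of -0.23, with Ctsc, a lysosomal protease, at -0.61 (adjusted p = 0.412, limma) and Etnppl, a phospholyase, at -0.52 (adjusted p = 0.785, limma). Of the 19 measured pericentral genes and the 17 periportal genes, 0 were called in either direction. At an unadjusted p under 0.05, 2 pericentral genes were lower and 4 higher, and 7 periportal genes were lower and 1 higher. Oat, Glul, Hal and Uroc1 are counted in, and over all probe sets, dim ones included, 4.78% were lower and 2.76% higher. An unmoderated test with the same adjustment called 0 genes in any of these 5 lists. The difference between the zones was not tested.

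**Figure D5:**
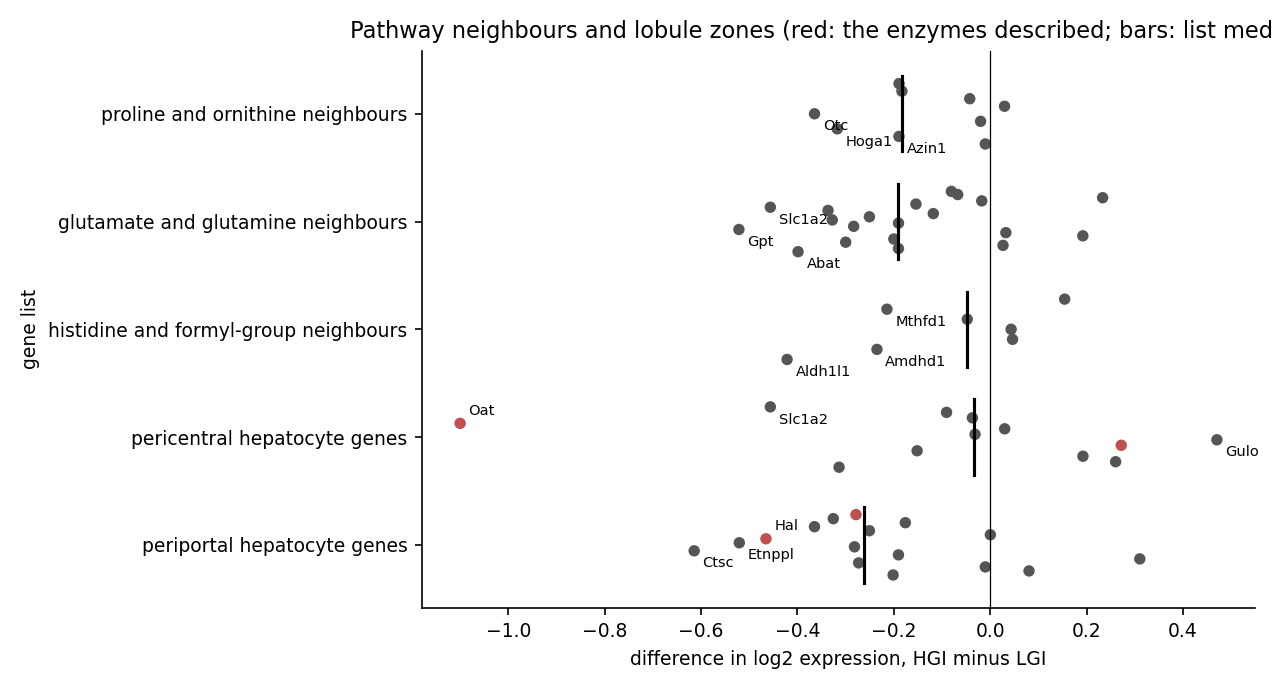
Difference in log2 expression (horizontal axis, HGI minus LGI) of genes with measurable signal in 3 lists of pathway neighbours and 2 lists of lobule zones (rows), at the brightest probe set of each gene; red marks the enzymes described here, black bars are list medians, and vertical scatter within a row carries no value. Oat at -1.10 lies apart from the other pericentral genes, which lie between -0.46 and 0.47.

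Markers showed liver tissue, with 8 of 8 measured hepatocyte markers at measurable signal and a mean level between 13.51 and 13.62 in HGI and between 13.50 and 13.56 in LGI. Markers of Kupffer cells averaged higher in HGI in 11 of 11 genes, with mean levels of 7.25 to 8.004 in HGI and 6.95 to 7.63 in LGI, and endothelial markers in 10 of 10, with 6.20 to 6.80 in HGI and 6.08 to 6.44 in LGI. The 5 measured erythroid markers had mean levels of 5.49 to 6.09 in HGI and 4.79 to 5.44 in LGI. The 9 stellate cell markers had 6.65 to 7.25 in HGI and 6.66 to 7.18 in LGI. The 4 adipocyte markers had 4.28 to 4.77 in HGI and 4.15 to 4.42 in LGI. Of the adipocyte markers Fabp4 alone differed widely, at 1.08, while Adipoq stood at -0.04, Lep at 0.02 and Retn at -0.07. Slc4a1, the anion exchanger of red cells, rose at 1 of its 3 probe sets (6.33 ± 0.92 in HGI and 3.75 ± 0.07 in LGI, SD, n = 5 each, limma adjusted p = 0.0211), with an LGI mean below the median of the arrays. It stood at 2.25 at its brightest probe set (limma adjusted p = 0.0625) and at -0.01 at the remaining one. At the brightest probe sets 0 markers were called by limma and 0 by the unmoderated test. At an unadjusted p under 0.05 the higher ones were 1 Kupffer, 2 endothelial, 2 erythroid, 1 stellate, 1 adipocyte and 1 hepatocyte marker. The lower ones were 1 hepatocyte, 1 stellate and 1 cholangiocyte marker. Over all probe sets 2.76% were higher and 4.78% lower at that threshold. For cholangiocyte and lymphocyte markers 0 of 6 measured genes each reached a mean log2 of 6. The part of these cell types in the differences above was not tested.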

How the data were processed

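The deposited table holds log2 expression per probe set. The submitters' processing notes name R 2.6.1 and RMA, a procedure of background correction, quantile normalization between arrays and summary over the probes. No source used here gives a genome build or scan dates. Of 45101 probe sets, 64 controls were left out. Names came from the platform annotation, checked through gene IDs against RefSeq (GRCm38.p6), which changed 0 symbols.

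HGI was compared with LGI in limma 3.58.1 (R 4.3.3, lmFit and eBayes) over all probe sets, with Benjamini-Hochberg adjustment at 0.05. A gene's brightest probe set stood for it. Within-diet correlations used deviations from the diet means and all 14400 rearrangements within diets. Named neighbours were the 3 list genes with the largest differences at a mean log2 of at least 6 and any called gene; likeness named 5 genes for each of Oat, Prodh, Glul and Hal. Arg1 was named after its value was seen. Alternatives were filters on dim probe sets, 2 further normalizations, other variance models, array weights, a replicate block, the unmoderated test and leaving out arrays. The procedure was tested on simulated data. The genes and lists were chosen with earlier results of these data known. Mice are separate animals per the labels; their number, 5 per diet, limits the precision.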

Additional observations from a re-analysis of the deposited data

Results flagged for a closer look

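A single mouse stood far from the others of its diet in 2 of 32 sets of 5 values examined, by the gap to its nearest neighbour relative to the range of the set, and chance flags about 1 set in 20. Glud1 at its brighter probe set read 11.68 in HGI 1, against 12.01 to 12.13 in the other HGI mice. Aldh18a1 at its brightest probe set, which averaged a little above the medians of the arrays, read 4.005 in LGI 5, against 4.21 to 4.27 in the other LGI mice.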

How the results depend on the processing

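The count of called probe sets among the 16 was 0 as reported and 1, always Oat, when probe sets with a mean log2 under 6 or below the median signal were left out, with a variance trend and robust fitting, with array weights, with 1 probe set per gene, and without HGI 1 and LGI 4 together (chosen after seeing the data). It was 0 to 1 when single arrays were left out, with Oat called without LGI 1 or without LGI 4, and 0 after quantile normalization again, median centring or the unmoderated test. The filters and the single probe set per gene test fewer probe sets; for the other settings the cause was not tested. Over all probe sets the count of calls was 29 as reported, 63 after quantile normalization again, 64 with array weights, 17 after median centring, 1 by the unmoderated test, 58 without HGI 1 and LGI 4, and 5 to 49 without single arrays. With the replicate number as a block, the count among the 16 was 0 and over all probe sets 33; mice with the same number did not deviate together (correlations of -0.13 to 0.04), so the numbers were not taken as pairs. The log2 differences of the 9 genes moved by less than the SD within diets under every setting tried. Leaving out single arrays, r lay between 0.42 and 0.70 for Hal and Uroc1, 0.58 and 0.86 for Uroc1 and Ftcd, 0.47 and 0.70 for Prodh and Aldh4a1, 0.56 and 0.84 for Oat and Prodh, and -0.42 and 0.36 for Oat and Glul. Adjusted, Uroc1 and Ftcd passed without LGI 2 (0.86, exact permutation adjusted p = 0.0278) and Oat and Prodh without HGI 1 (0.84, exact permutation adjusted p = 0.0434). Oat and Glul turned negative without LGI 4 (-0.42), without LGI 5 (-0.0049), without the 2 farthest mice (-0.42) and without HGI 1 and LGI 4 (-0.26); the cause was not tested.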
